A study of Mus musculus with 47 samples.

Results

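The comparison described here was of sorted medullary thymic epithelial cells (mTECs) of newborn mice without EED at 2 stages of maturation. It set 3 libraries of mTEChi EEDcKO against 4 libraries of mTEClo EEDcKO, 7 of the 47 libraries of the study, across all genes. Both fractions were sorted from thymus of C57BL/6 mice as CD45-, EpCAM+ and Ly51- cells, at high (mTEChi) or low (mTEClo) surface MHC class II. EEDcKO mice carried a floxed Eed gene, whose protein is part of the core of Polycomb repressive complex 2 (PRC2), and Foxn1-Cre, a recombinase expressed with the thymic epithelial factor Foxn1. Both fractions therefore lacked EED only where Foxn1-Cre had acted, and the labels of neither name a change to Aire. The mTEChi EEDcKO libraries were from mice of 6 days (female), 2 to 3 days and 1 day (males and females pooled), and they are given in this order throughout. The mTEClo EEDcKO libraries, also in the order given, were from mice of 2 to 3 days, 1 day (both pooled), 6 days (female) and 4 days (pooled). The last 2 were numbered later in the sample record than the other EEDcKO libraries, and no label names a batch. For comparison, the same fractions were read in Ctrl mice, whose labels say no more than that: 5 mTEChi libraries (2 males of 6 days, a female and a male of 2 to 3 days, pooled mice of 1 day) and 3 mTEClo libraries (a female and a male of 2 to 3 days, pooled mice of 1 day). A further pair came from AireEEDdKO mice of 4 to 6 days, 3 libraries for each fraction, which also lacked Aire. The remaining neonatal libraries, 3 of mTEChi from AireKO mice of 4 and 6 days (males or pooled), entered only the shared filter, scaling and estimate of spread. To define 1 gene list, mTEChi of adult C57BL/6 mice were used, 4 libraries of AireKO (5 to 6 weeks, males) and 7 of WT (4 to 5 weeks, males and females). The labels do not say whether libraries of like age came from the same mice, so p-values measure the spread between these libraries.

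As background, mTECs teach T cells what belongs to the body. They pass from mTEClo, which includes progenitors, to mTEChi, in which many cells express Aire, display MHC class II with the costimulators CD80 and CD86, and transcribe genes of other tissues for presentation. Some mature mTECs take on features of other cell types, such as tuft cells or enterocytes, and are called mimetic cells. PRC2 places a repressive mark on histone H3 (H3K27me3) at genes that a cell keeps silent, among them the Hox genes and other regulators of development.

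The 7 libraries held 1578579 to 4650379 counts, and levels are given as CPM, the counts scaled by TMM-adjusted library size. Log2 values of replicates correlated at 0.928 to 0.943 within mTEChi EEDcKO and at 0.916 to 0.966 within mTEClo EEDcKO, where the lowest value was that of the 2-to-3-day with the 6-day library. The defining epithelial markers were present in every library: Epcam at 266, 189.8 and 271 CPM in mTEChi and 163, 188, 179 and 199 CPM in mTEClo, and Cdh1, the epithelial cadherin, at 465 to 643 CPM in all 7. Hematopoietic markers were read too, and they moved with the fraction. The summed level of 9 tested thymocyte genes ran from 110.0 to 176 CPM in mTEChi EEDcKO and from 23.0 to 46.8 CPM in mTEClo EEDcKO. For 11 myeloid genes the ranges were 230.3 to 381 CPM and 43.2 to 186 CPM, and for 4 B cell genes 24.2 to 34.9 CPM and 6.31 to 13.0 CPM. In Ctrl the same sums also stood higher in mTEChi, and the part of these cells in any change below was not tested. In bulk libraries, fewer cells of a type and less RNA per cell cannot be told apart. Eed itself was read at 19.8, 10.7 and 13.8 CPM in mTEChi and 15.8, 14.4, 14.1 and 16.4 CPM in mTEClo, with log2 difference -0.09 ± 0.23 SE, adjusted p = 0.778. The means in Ctrl were 29.1 ± 7.93 CPM (SD, n = 5) in mTEChi and 24.2 ± 1.43 CPM (SD, n = 3) in mTEClo. A count over the whole gene includes exons outside a deleted part, so it checks the deletion only in part.

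Of 20196 genes tested, 4407 differed between mTEChi and mTEClo EEDcKO at an adjusted p under 0.05 and at least 2-fold (edgeR quasi-likelihood test over all neonatal libraries), which is 21.8% of all. Higher in mTEChi were 2858 genes (14.2%) and lower were 1549 (7.67%), while the median log2 difference of all genes was -0.05. Among scarce transcripts that passed the filter on low counts, rises were more frequent. Of genes with a mean of 1 to 3 CPM, 23.7% rose and 6.38% fell, against 6.18% and 6.00% at 100 CPM or more. A scarce gene can pass that filter through its higher fraction alone, so these shares are no finding about scarce genes. Protein-coding genes made up most calls, with 14.8% of them higher and 5.86% lower. Long intergenic noncoding genes rose in 22.5% and fell in 11.8%, whereas sense-intronic transcripts rose in 4.73% and fell in 23.6% of those tested. Counting regardless of strand leaves intronic and antisense transcripts uncertain.

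Aire and the surface proteins of mature mTECs were higher in mTEChi without EED. In a list of 10 genes of mature mTECs, 8 rose and none fell, with a median log2 difference of 1.39 against -0.05 for all genes. In Ctrl 5 of the 10 rose and none fell, with a median of 0.98. The rises in EEDcKO numbered 6 without the 6-day mTEChi library, and also 6 without the mTEClo library of 2 to 3 days or that of 1 day. Aire, the regulator through which mTECs express tissue-restricted genes, was counted at 1072, 603 and 787 CPM in mTEChi and 124, 234, 312 and 60.6 CPM in mTEClo, with log2 difference 2.16 ± 0.41 SE, adjusted p = 0.000298. Every mTEChi library was above every mTEClo library, and among the latter the 4-day library was lowest and the 6-day library highest. The Aire gene lies on mouse chromosome 10 from 78030022 to 78043610 (GRCm38, minus strand). The window from 250 bases before to 50 bases after its most upstream start in RefSeq (chr10:78043561-78043860, GRCm38.p6, minus strand) is shown because the rise of Aire is what the rest of the mature programme is read beside, with CpG dinucleotides in capitals:
Aire: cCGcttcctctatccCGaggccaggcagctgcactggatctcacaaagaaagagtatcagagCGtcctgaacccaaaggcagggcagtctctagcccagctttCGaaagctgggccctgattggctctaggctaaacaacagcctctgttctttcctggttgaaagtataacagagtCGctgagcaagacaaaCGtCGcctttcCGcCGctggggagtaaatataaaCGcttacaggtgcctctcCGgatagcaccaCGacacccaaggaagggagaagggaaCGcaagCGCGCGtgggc
It holds 16 CpGs, against a median of 7 over 27025 such windows, and 1 copy of TATAAA (searched on both strands), a motif found in 14.2% of the windows.

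The costimulators followed the same order. Cd80 was read at 153, 81.1 and 117 CPM in mTEChi and 11.8, 24.8, 33.9 and 20.2 CPM in mTEClo (log2 difference 2.33 ± 0.36 SE, adjusted p = 3.96e-05). Cd86 was at 43.4, 26.5 and 52.5 CPM in mTEChi and 2.02, 6.47, 8.10 and 0.505 CPM in mTEClo (log2 difference 3.20 ± 0.53 SE, adjusted p = 7.70e-05). Cd40, the receptor through which T cells license antigen-presenting cells, stood at 181, 146 and 155 CPM in mTEChi and 32.3, 48.5, 112 and 75.2 CPM in mTEClo (log2 difference 1.24 ± 0.27 SE, adjusted p = 0.000975). For all 3 genes the fractions did not overlap, as was so for 17.2% of all genes upward and 19.2% downward, and the 6-day library held the highest Cd80, Cd86 and Cd40 of the mTEClo libraries. Fezf2, a second regulator of tissue antigens in mTECs, was at 255, 217 and 290.0 CPM in mTEChi and 32.0, 66.1, 157 and 91.4 CPM in mTEClo (log2 difference 1.53 ± 0.32 SE, adjusted p = 0.000661). Il2rg, the common cytokine receptor chain, rose by a log2 value of 2.37 ± 0.39 (SE, adjusted p = 7.50e-05). Tnfrsf11a, which encodes the RANK receptor that drives mTEC maturation, rose by 1.01 ± 0.23 (adjusted p = 0.00135) and Prdm1 by 1.07 ± 0.36 (adjusted p = 0.0215). The remaining members, Irf8 at 0.70 ± 0.20 and Cd274 (PD-L1) at 0.46 ± 0.17, passed the adjusted p but not the 2-fold limit.

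**Figure D1:**
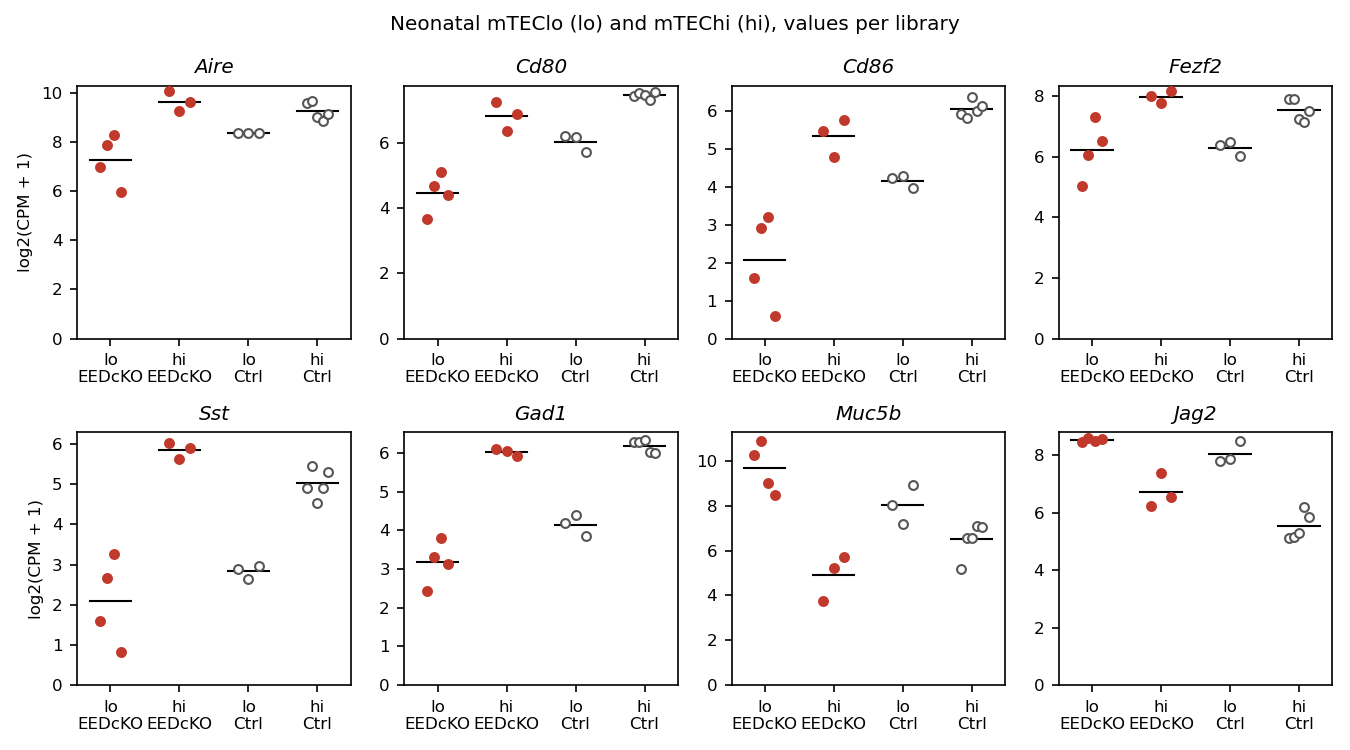
CPM per library on a log2(CPM + 1) axis for 8 genes in mTEClo and mTEChi of EEDcKO (4 and 3 libraries) and Ctrl (3 and 5 libraries), with points for libraries and bars at group means of the plotted values. Aire, Cd80, Cd86, Fezf2, Sst and Gad1 are higher in all mTEChi than in all mTEClo EEDcKO libraries, while Muc5b and Jag2 are lower.

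Antigen presentation through MHC class II was the basis of the sort, and its transcripts are no finding. Of 11 genes 3 rose and none fell, with a median log2 difference of 0.62 against -0.05 for all genes. H2-Aa, a class II alpha chain, was read at 719, 375 and 493 CPM in mTEChi and 369, 362, 344 and 396 CPM in mTEClo (log2 difference 0.52 ± 0.25 SE, adjusted p = 0.106), so that the 2-to-3-day mTEChi library was among the mTEClo values. The rises were in Ctss, the protease that trims the class II chaperone, with log2 difference 1.54 ± 0.33 SE, adjusted p = 0.00086, and in the peptide-loading modulators H2-Oa (1.40 ± 0.34, adjusted p = 0.00265) and H2-Ob (1.61 ± 0.38, adjusted p = 0.0019). Of 15 genes of the NF-kB pathway that RANK and CD40 engage, 1 was called, Traf6, an adaptor of both receptors, at 326, 218 and 262 CPM in mTEChi and 106, 119.6, 140.1 and 100.2 CPM in mTEClo (log2 difference 1.20 ± 0.15 SE, adjusted p = 6.89e-06). Relb (0.81 ± 0.22), Nfkb2 (0.91 ± 0.20), Birc3 (0.96 ± 0.22), Nfkbia (0.86 ± 0.21) and Nfkbie (0.95 ± 0.24) passed the adjusted p with changes under 2-fold. In each of these 5 genes the groups did not overlap, and the 2 mTEClo libraries of 4 and 6 days were nearer to mTEChi than the other mTEClo libraries. Without those libraries 6 of the 15 were called higher. The count depended on other settings too: it was 3 with DESeq2, with RLE scaling, with either other filter on low counts and without the 4-day mTEClo library, 4 with age as a term, and 5 without the 2-to-3-day mTEChi library or without the 6-day mTEClo library.

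Of 10 chemokine genes tested, 4 rose and 1 fell. Ccl22, which attracts regulatory T cells, was at 103, 127 and 229.9 CPM in mTEChi and 25.6, 73.3, 4.48 and 2.02 CPM in mTEClo (log2 difference 2.64 ± 0.67 SE, adjusted p = 0.00362). Ccl20, the ligand of CCR6, was at 42.7, 22.1 and 63.8 CPM in mTEChi and 1.35, 11.5, 3.63 and 11.1 CPM in mTEClo (log2 difference 2.63 ± 0.54 SE, adjusted p = 0.000592). Cxcl9 rose by 1.43 ± 0.34 (adjusted p = 0.00222) and Ccl5 by 1.27 ± 0.37 (adjusted p = 0.00881), with 1 mTEClo library of Ccl5, that of 6 days, among the mTEChi values. Cxcl12, a chemokine that cortical epithelium makes for T cell progenitors, fell from 209, 225, 83.2 and 57.8 CPM in mTEClo to 29.7, 45.1 and 30.2 CPM in mTEChi (log2 difference -2.0 ± 0.56 SE, adjusted p = 0.00745). Of 20 interferon-stimulated genes 1 rose, Ifit2 (1.06 ± 0.30, adjusted p = 0.00775), and the median was -0.16. The count was 0 without the 1-day mTEChi or the 2-to-3-day mTEClo library, and 2 without the 2-to-3-day mTEChi or the 6-day mTEClo library.

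Genes of other tissues rose in mTEChi without EED. Among 15 tested genes that are classical examples of such antigens, 9 rose and none fell, with a median log2 difference of 2.24. In Ctrl 10 of the 15 rose and none fell, with a median of 1.63. The rises in EEDcKO numbered 7 without the 6-day or without the 1-day mTEChi library. Fitted on the EEDcKO libraries alone, 5 of 12 genes tested rose. Gad1, the brain and islet enzyme that makes GABA, was at 67.5, 65.0 and 59.8 CPM in mTEChi and 4.38, 8.98, 13.0 and 7.82 CPM in mTEClo (log2 difference 2.86 ± 0.27 SE, adjusted p = 3.82e-07), with even values in mTEChi. Csn2, the milk protein beta-casein, was at 317, 134 and 247 CPM in mTEChi and 39.4, 63.6, 72.5 and 14.6 CPM in mTEClo (log2 difference 2.28 ± 0.44 SE, adjusted p = 0.000363). Ins2, which encodes insulin, was scarce at 7.43, 3.06 and 6.60 CPM in mTEChi and 0, 0.359, 0.640 and 0.757 CPM in mTEClo and still rose (log2 difference 3.40 ± 0.54 SE, adjusted p = 0.000144). Apob, the apolipoprotein of liver and gut, depended more on 1 library, at 147, 18.4 and 12.3 CPM in mTEChi and 2.02, 10.8, 4.69 and 1.26 CPM in mTEClo (log2 difference 3.58 ± 0.84 SE, adjusted p = 0.00193), since the 6-day mTEChi library was far above the others, although all 3 exceeded all mTEClo libraries. Mup4, a major urinary protein, had 0 counts in all 4 mTEClo libraries and 1, 2 and 8 counts in the mTEChi libraries, too few for a firm size. Mup4 belongs to a family of near-identical genes, so its reads are uncertain.

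The 10 largest rises by log2 difference, among protein-coding genes with at least 10 CPM in mTEChi and no overlap, ranged from 4.08 ± 0.59 to 4.75 ± 0.68. Calb2, the neuronal calcium-binding protein calretinin, was at 64.4, 37.8 and 61.3 CPM in mTEChi and 1.35, 4.67, 3.20 and 0.757 CPM in mTEClo (log2 difference 4.45 ± 0.41 SE, adjusted p = 3.82e-07). Pgc, a stomach pepsinogen, was at 84.2, 27.3 and 98.8 CPM in mTEChi and 1.35, 8.98, 2.56 and 1.26 CPM in mTEClo (log2 difference 4.37 ± 0.50 SE, adjusted p = 2.73e-06). Vgf, a neuroendocrine secretory protein, was at 23.5, 36.3 and 58.2 CPM in mTEChi and 1.35, 1.08, 3.84 and 1.51 CPM in mTEClo (log2 difference 4.23 ± 0.51 SE, adjusted p = 4.02e-06). The highest mTEClo library was that of 1 day for Calb2 and Pgc and that of 6 days for Vgf. Kpna7 (4.75 ± 0.68), Fgf4 (4.48 ± 0.73), Car4 (4.28 ± 0.50), Htr3a (4.28 ± 0.68), Asb4 (4.24 ± 0.42), Reg1 (4.20 ± 0.86) and Ces1f (4.08 ± 0.59) completed the 10, at adjusted p between 9.97e-07 and 0.000606. The mTEChi libraries were uneven for Kpna7, the largest rise, at 8.67, 18.8 and 79.3 CPM. They were also uneven for Fgf4, a growth factor of the early embryo, at 57.0, 22.3 and 3.77 CPM, and for Htr3a, a serotonin receptor subunit, at 2.48, 15.5 and 38.4 CPM. The size for Reg1, a pancreatic and gut protein, rested on the 1-day library, since it was at 3.72, 3.06 and 53.5 CPM in mTEChi and 1.68, 2.51, 0.640 and 0 CPM in mTEClo. By difference of mean CPM, the largest rises were those of Sspo, Ttn, Aire, Slc4a8 and Kndc1, with log2 differences of 1.78 ± 0.31, 1.38 ± 0.32, 2.16 ± 0.41, 2.60 ± 0.48 and 1.81 ± 0.26.

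Promoters are printed for 2 of these tissue genes, a hormone and a digestive-organ protein, to show a start that holds CpGs and one that holds none. Sst, which encodes somatostatin, was at 64.4, 48.8 and 58.5 CPM in mTEChi and 2.02, 5.39, 8.53 and 0.757 CPM in mTEClo (log2 difference 3.71 ± 0.42 SE, adjusted p = 5.25e-06). The windows are from RefSeq (GRCm38.p6) at chr16:23890795-23891094 (minus strand) for Sst and chr6:78425733-78426032 (plus strand) for Reg1, with CpGs in capitals:
Sst: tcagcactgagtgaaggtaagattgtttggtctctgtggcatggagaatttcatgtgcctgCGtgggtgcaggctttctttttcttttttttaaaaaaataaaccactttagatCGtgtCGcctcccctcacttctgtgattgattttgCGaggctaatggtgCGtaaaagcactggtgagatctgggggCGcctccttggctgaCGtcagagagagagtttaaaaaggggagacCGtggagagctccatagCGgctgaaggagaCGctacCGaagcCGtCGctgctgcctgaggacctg
Reg1: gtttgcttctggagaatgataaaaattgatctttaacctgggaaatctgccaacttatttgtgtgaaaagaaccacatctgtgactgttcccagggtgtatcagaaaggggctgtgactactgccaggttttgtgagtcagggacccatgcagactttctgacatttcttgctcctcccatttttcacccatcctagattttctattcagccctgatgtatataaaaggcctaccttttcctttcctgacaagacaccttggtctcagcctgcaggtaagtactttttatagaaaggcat
The Sst window holds 13 CpGs and, at bases 203 to 210, 1 copy of TGACGTCA (a motif that reads the same on both strands and is known from this gene as the cyclic AMP response element), which 1.85% of all windows hold. The Reg1 window holds 0 CpGs and 2 matches to TATAAA, counting both strands. A match is a description of the letters alone. Windows were listed for 78.0% of the protein-coding genes tested, too few to compare base composition between rising and falling genes, and no such comparison was made.

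A wider list was drawn from other libraries: the genes at least 2-fold lower in adult mTEChi AireKO than in adult mTEChi WT. Of 3233 such genes tested in the neonates, 1018 rose and 381 fell from mTEClo to mTEChi EEDcKO, with a median log2 difference of 0.45. In Ctrl, where 13.8% of all genes rose and 6.92% fell, the same list held 1088 rises and 292 falls, with a median of 0.91. In AireEEDdKO, where 21.0% of all genes were called in either direction, 10.4% higher and 10.6% lower, it held 258 rises and 638 falls, with a median of -0.25. All mTEClo AireEEDdKO libraries were numbered later in the sample record than the mTEChi ones, so fraction and that order cannot be told apart there. No difference between genotypes was tested for the list.

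Markers of mimetic cells behaved unevenly. Enterocyte genes rose in 8 of 12, microfold genes in 5 of 8, keratinocyte genes in 6 of 13, muscle genes in 5 of 12, endocrine genes in 4 of 12, ciliated cell genes in 4 of 11 and ionocyte genes in 2 of 6. For tuft cells 2 of 13 genes rose, a share near that of all genes, and the median was -0.12. Several of these counts rested on 1 library. Without the 1-day mTEChi library 5 enterocyte, 3 microfold and 0 ionocyte genes rose, and of the tuft cell genes 1 rose and 2 fell, with a median of -0.90. Tuft cell genes also had 1 rise without the 2-to-3-day or without the 6-day mTEClo library, and ciliated cell genes had 2 without the 6-day mTEChi library. In Ctrl the rises numbered 11 for enterocyte, 6 for endocrine, 2 for ionocyte and 1 for tuft cell genes. Microfold, keratinocyte, muscle and ciliated cell genes had 3 each in Ctrl. Hnf4a, the master regulator of the enterocyte programme, was scarce, at 1.86, 6.78 and 5.35 CPM in mTEChi and 0.337, 0, 1.07 and 1.01 CPM in mTEClo (log2 difference 2.82 ± 0.56 SE, adjusted p = 0.000465). Pyy, a gut hormone, was at 55.7, 31.9 and 66.7 CPM in mTEChi and 0.337, 1.44, 16.2 and 1.26 CPM in mTEClo (log2 difference 3.26 ± 0.65 SE, adjusted p = 0.000573), and its highest mTEClo value was that of the 6-day library. Insm1, an endocrine zinc-finger factor, rose by 2.44 ± 0.41 (adjusted p = 9.64e-05) and Scg2 by 2.90 ± 0.61 (adjusted p = 0.000746). Chga, the granin of endocrine cells, fell, at 31.0, 29.1 and 35.9 CPM in mTEChi and 218, 307, 10.4 and 152 CPM in mTEClo (log2 difference -2.42 ± 0.71 SE, adjusted p = 0.00986). In Chga the 6-day mTEClo library was below all mTEChi libraries and the other mTEClo libraries were above them.

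Krt77, a skin keratin, rose most among the keratinocyte genes, at 173, 132 and 233 CPM in mTEChi and 13.5, 28.0, 28.4 and 4.04 CPM in mTEClo (log2 difference 3.28 ± 0.49 SE, adjusted p = 2.84e-05), and Lor (loricrin) rose by 2.81 ± 0.73 (adjusted p = 0.00444). Among microfold genes, Spib rose by 1.02 ± 0.23 (adjusted p = 0.00126) and Sox8 by 1.66 ± 0.34 (adjusted p = 0.000557). Gp2, the bacterial uptake receptor, was at 58.8, 23.0 and 39.3 CPM in mTEChi and 98.0, 66.1, 32.8 and 17.9 CPM in mTEClo (log2 difference -0.44 ± 0.49 SE, adjusted p = 0.5). Among ciliated cell genes, the master factor Foxj1 rose, at 43.4, 60.1 and 60.7 CPM in mTEChi and 12.1, 20.5, 26.9 and 27.0 CPM in mTEClo (log2 difference 1.34 ± 0.29 SE, adjusted p = 0.001). Trp73, an upstream factor, fell, at 10.5, 19.2 and 12.3 CPM in mTEChi and 48.8, 37.7, 45.6 and 40.1 CPM in mTEClo (log2 difference -1.57 ± 0.20 SE, adjusted p = 7.67e-06). The 2 factors thus moved in opposite directions, each without overlap between fractions. Of the tuft cell genes, the master factor Pou2f3 did not pass the test, at 8.05, 24.1 and 30.8 CPM in mTEChi and 19.9, 28.4, 27.1 and 19.4 CPM in mTEClo (log2 difference -0.11 ± 0.30 SE, adjusted p = 0.803), and Gfi1b (2.48 ± 0.43, adjusted p = 0.000112) and Hmx2 (1.45 ± 0.49, adjusted p = 0.0234) rose. Gnat3, the taste G protein, was at 0.619, 1.09 and 15.4 CPM in mTEChi and 2.69, 1.08, 15.8 and 1.77 CPM in mTEClo, high in 1 library of each fraction.

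**Figure D2:**
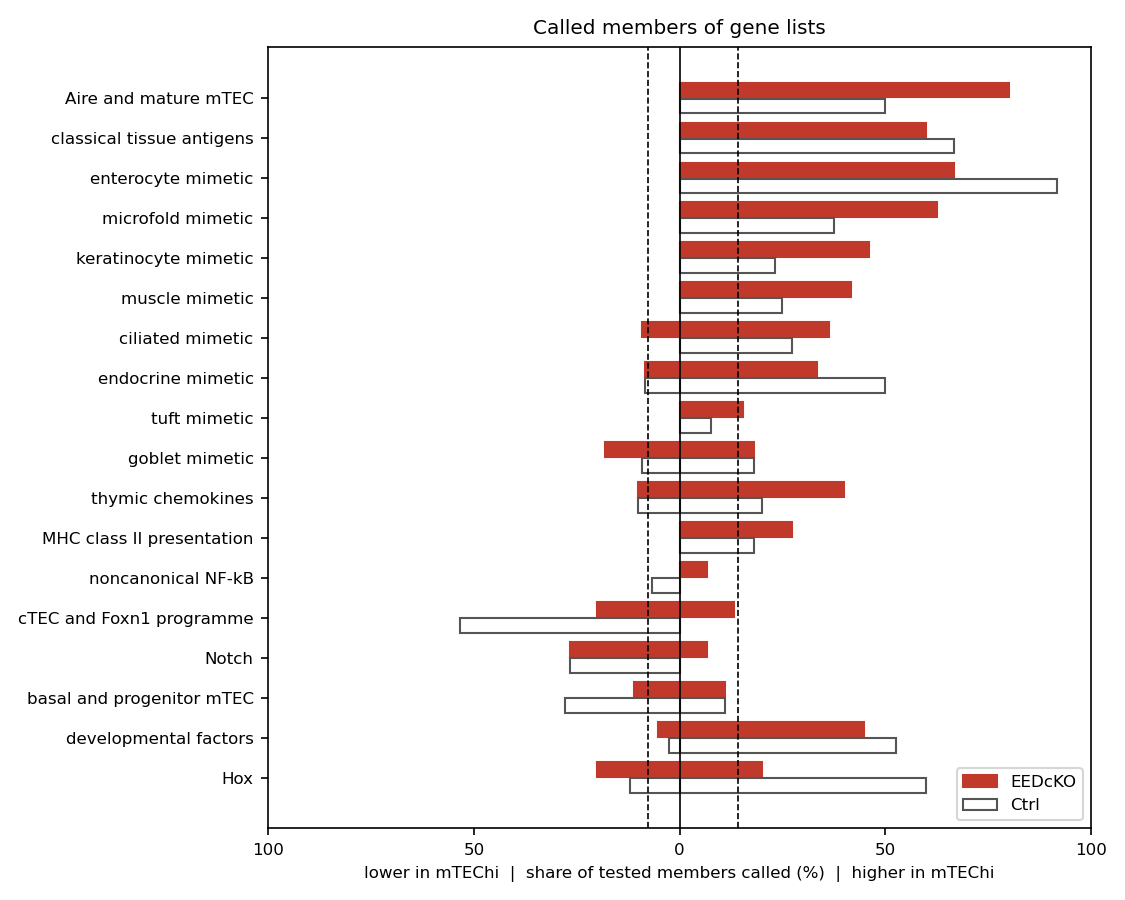
Share of tested members called higher (right of 0) or lower (left of 0) in mTEChi than in mTEClo, in percent, for 18 gene lists in EEDcKO (filled bars) and Ctrl (open bars). Dashed lines mark the shares over all genes in EEDcKO, 14.2% higher and 7.67% lower. Classical antigens, mature mTEC genes and enterocyte genes stand far to the right in EEDcKO, and Hox genes are called in both directions. In Ctrl 66.67% of the classical antigens, 50% of the mature mTEC genes and 91.67% of the enterocyte genes were called higher.

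Mucins moved in opposite directions. Muc5b, the gel-forming mucin of airway secretory cells, was among the most changed genes in both lists of falls, at 12.4, 36.3 and 52.2 CPM in mTEChi and 1238, 1936, 520.3 and 362 CPM in mTEClo (log2 difference -4.84 ± 0.77 SE, adjusted p = 5.56e-05). Its neighbor in the mucin cluster, Muc5ac, was at 256, 243 and 324 CPM in mTEChi and 35.4, 18.7, 190.4 and 39.1 CPM in mTEClo (log2 difference 1.92 ± 0.54 SE, adjusted p = 0.00732). No library overlapped between the fractions for either gene, and the 2 youngest mTEClo samples held the highest Muc5b. Agr2, a chaperone of mucin secretion, fell (-1.92 ± 0.74, adjusted p = 0.0432) and Tff3, a goblet cell peptide, rose (1.96 ± 0.62, adjusted p = 0.0149).

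The other large falls included transporters, matrix proteins and receptors. Abca8b, a lipid transporter, was at 1.24, 2.41 and 0.315 CPM in mTEChi and 97.0, 57.1, 37.3 and 51.0 CPM in mTEClo (log2 difference -5.34 ± 0.65 SE, adjusted p = 4.70e-06). Scn1a, a neuronal sodium channel, was at 2.48, 5.03 and 1.89 CPM in mTEChi and 272, 190.1, 28.8 and 21.7 CPM in mTEClo (log2 difference -5.21 ± 0.85 SE, adjusted p = 9.36e-05), with a wide gap between the younger and the older mTEClo libraries. Ackr4, a scavenging receptor for CCL19, CCL21 and CCL25, was at 2.48, 7.44 and 12.6 CPM in mTEChi and 204, 158, 56.5 and 45.9 CPM in mTEClo (log2 difference -3.82 ± 0.55 SE, adjusted p = 1.91e-05). The 10 largest falls also held Abca9 (-4.36 ± 0.63), Col3a1 (-4.23 ± 0.59), Colgalt2 (-3.98 ± 0.71), Olfml1 (-3.68 ± 0.70) and Ebf3 (-3.52 ± 0.37), at adjusted p between 9.97e-07 and 0.000305. By difference of mean CPM the largest falls beside Muc5b were in the receptor Lrp1, the cadherin Fat2 and the basement membrane proteins Fras1 and Agrn. Lrp1 was at 191, 326 and 368 CPM in mTEChi and 1198, 1141, 916 and 944 CPM in mTEClo (log2 difference -1.82 ± 0.22 SE, adjusted p = 4.32e-06). Fras1 was at 164, 204 and 146 CPM in mTEChi and 1037, 938, 529 and 512 CPM in mTEClo (log2 difference -2.14 ± 0.27 SE, adjusted p = 5.60e-06). The log2 differences were -1.36 ± 0.21 for Fat2 and -1.38 ± 0.16 for Agrn.

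Notch genes were lower in mTEChi in 4 of 15, with 1 higher and a median of -0.46. Over all genes 7.67% were lower and 14.2% higher. Ctrl likewise had 4 of the 15 lower, with 0 higher and a median of -0.53. The ligand Jag2 was at 74.9, 165 and 93.7 CPM in mTEChi and 356, 394, 358 and 382 CPM in mTEClo (log2 difference -1.72 ± 0.30 SE, adjusted p = 0.00014). The ligand Dll1 (-1.02 ± 0.26, adjusted p = 0.00363), the receptor Notch3 (-1.06 ± 0.24, adjusted p = 0.00129) and the target Hey2 (-1.07 ± 0.36, adjusted p = 0.0233) fell too. Lfng, a glycosyltransferase that tunes ligand choice, rose, at 18.0, 19.9 and 17.3 CPM in mTEChi and 9.09, 3.95, 4.69 and 8.33 CPM in mTEClo (log2 difference 1.50 ± 0.30 SE, adjusted p = 0.000483). Dll1 and Notch3 were close to the 2-fold limit, and 2 Notch genes were called lower without the 2 later mTEClo libraries, without the 6-day one alone, without the 2-to-3-day mTEChi library and with DESeq2. Rises numbered 3 without that mTEChi library and 2 without the 1-day mTEClo library. Of 18 genes of basal and progenitor mTECs, 2 fell and 2 rose: Trp63, the factor of basal epithelium, at 178, 207 and 165 CPM in mTEChi and 423, 331, 319 and 429.8 CPM in mTEClo (log2 difference -1.03 ± 0.15 SE, adjusted p = 2.71e-05), Lamb3, a laminin chain (-1.10 ± 0.29, adjusted p = 0.00512), and upward the tight-junction genes Cldn3 (1.22 ± 0.30, adjusted p = 0.00264) and Cldn4 (1.14 ± 0.19, adjusted p = 8.90e-05). Krt5 and Krt14, the basal keratins, had log2 differences of -0.02 ± 0.17 and 0.19 ± 0.23 that did not pass the test. Neither fall of this list was called without the 1-day mTEChi or without the 4-day mTEClo library. The shares of the list, 11.1% higher and 11.1% lower, were near those of all genes, 14.2% and 7.67%. In Ctrl 2 of the 18 rose and 5 fell.

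Genes of cortical epithelium and of the Foxn1 programme differed among the mTEClo EEDcKO libraries themselves. Psmb11, a proteasome subunit of cortical cells, was at 8.67, 19.7 and 11.0 CPM in mTEChi and 52.9, 81.9, 5.76 and 4.04 CPM in mTEClo (log2 difference -1.32 ± 0.76 SE, adjusted p = 0.179). The cortical protease Prss16 was at 28.5, 82.7 and 43.4 CPM in mTEChi and 135, 208, 47.8 and 41.6 CPM in mTEClo (log2 difference -1.0 ± 0.51 SE, adjusted p = 0.13). The 2 mTEClo libraries from mice of up to 3 days were above all mTEChi libraries for both, and the mTEClo libraries of 4 and 6 days were within or below the mTEChi range. Those 2 libraries were also numbered later in the sample record, with no batch named, so age and that order cannot be told apart. Of the 15 genes of this list, 2 rose (Tbata and Cd83) and 3 fell, and without the later libraries 0 rose and 6 fell. The rises were 0 or 1 without any 1 of the 7 EEDcKO libraries other than the 1-day mTEClo one. Beside Cxcl12, Kitl, which encodes stem cell factor, fell (-1.34 ± 0.28, adjusted p = 0.0006), as did Ctsl, the cortical cathepsin (-1.05 ± 0.26, adjusted p = 0.00275). Foxn1, the factor that drives the Cre, was at 194, 206 and 242 CPM in mTEChi and 104, 186, 134 and 93.4 CPM in mTEClo (log2 difference 0.73 ± 0.20 SE, adjusted p = 0.00535), a change under 2-fold without overlap of the groups.

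Polycomb targets were read next, since they are the genes PRC2 is known to hold silent. Of 39 Hox genes, 25 passed the filter on low counts, and of these 5 rose and 5 fell in EEDcKO, with a median of 0.08. In Ctrl 15 of the 25 rose and 3 fell, with a median of 1.68. In AireEEDdKO 2 rose and 9 fell, with a median of -0.92. In EEDcKO 3 rose without the 1-day mTEChi library and 3 fell without the 1-day mTEClo library. The summed level of the 25 was 134 to 166 CPM in mTEClo and 129 to 139.6 CPM in mTEChi of EEDcKO, against 63.6 to 68.4 CPM and 83.3 to 117 CPM in the same fractions of Ctrl. The falls in EEDcKO included those of Hoxa2, Hoxa3, Hoxa7 and Hoxb2. Hoxa3, which is needed to form a thymus, was at 3.10, 15.5 and 9.75 CPM in mTEChi and 32.0, 42.4, 30.3 and 26.8 CPM in mTEClo (log2 difference -1.67 ± 0.37 SE, adjusted p = 0.00125), and in Ctrl its log2 difference was -2.26 ± 0.41 (adjusted p = 0.000258). Hoxa7 was at 1.24, 1.31 and 0.629 CPM in mTEChi and 4.04, 8.26, 4.69 and 2.27 CPM in mTEClo (log2 difference -2.12 ± 0.52 SE, adjusted p = 0.00323), while its log2 difference in Ctrl was 1.87 ± 1.01 (adjusted p = 0.157) and the difference of the changes did not pass the test (adjusted p = 0.0704). The rises were Hoxa9, Hoxb6, Hoxb8, Hoxb13 and Hoxc11. Hoxb6 was at 8.67, 7.0 and 12.6 CPM in mTEChi and 1.01, 2.87, 3.20 and 1.26 CPM in mTEClo (log2 difference 2.13 ± 0.51 SE, adjusted p = 0.00219). Hoxc11 was at 7.43, 6.12 and 3.46 CPM in mTEChi and 1.01, 1.44, 2.56 and 0.505 CPM in mTEClo (log2 difference 1.92 ± 0.53 SE, adjusted p = 0.00648). Hoxa9 was less even, and its 6-day mTEClo library was above the 1-day mTEChi library.

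The change from mTEClo to mTEChi differed between EEDcKO and Ctrl for 2 Hox genes, both of the Hoxc cluster; over all genes 1.58% had a called difference, 0.614% more positive and 0.97% more negative in EEDcKO. Hoxc8 was at 2.48, 5.69 and 1.89 CPM in mTEChi and 4.71, 3.95, 7.89 and 4.80 CPM in mTEClo (log2 difference -0.59 ± 0.41 SE, adjusted p = 0.267), whereas in Ctrl it was 8.44 ± 2.56 CPM (SD, n = 5) in mTEChi and 2.21 ± 0.981 CPM (SD, n = 3) in mTEClo. The difference of the 2 log2 changes was -2.47 ± 0.60 (SE, adjusted p = 0.0312), and it was -2.55 ± 0.66 (adjusted p = 0.0423) for Hoxc9. The log2 change was more negative in EEDcKO than in Ctrl in 19 of the 25 Hox genes, by sign alone. Over all genes the median of that difference was 0.02. Beyond the 2 Hoxc genes none of these differences was called, so the sign count is no result for the family.

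**Figure D3:**
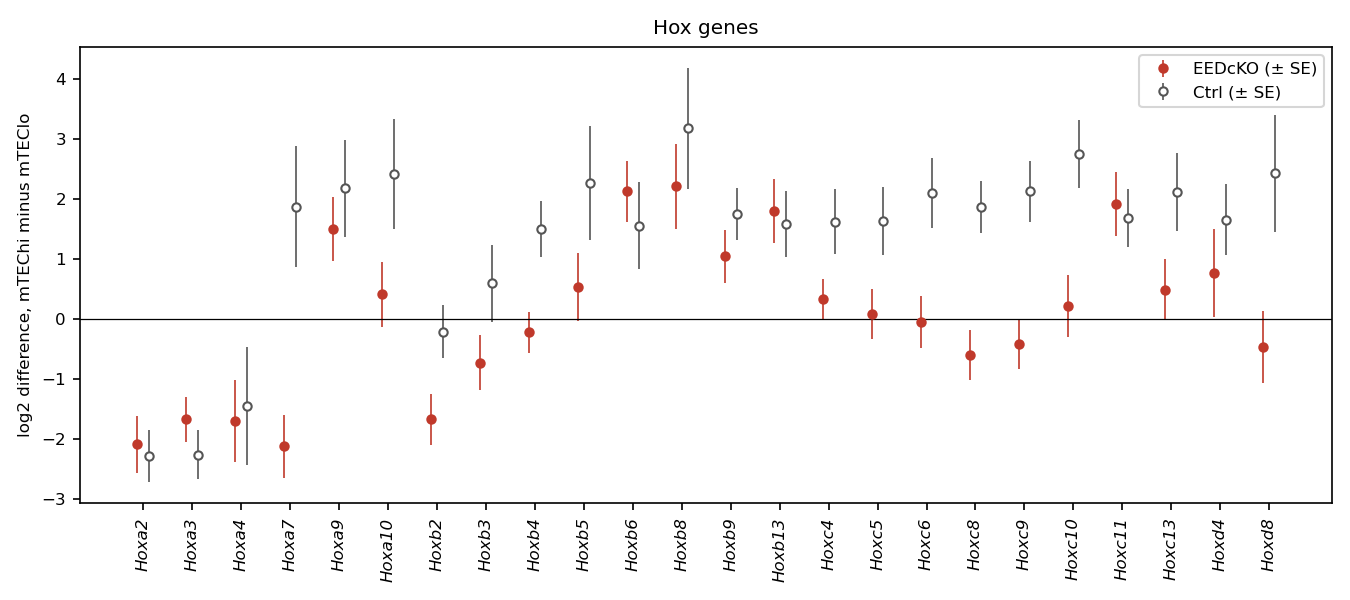
Log2 difference between mTEChi and mTEClo with its SE for 24 Hox genes, in EEDcKO (filled points) and Ctrl (open points), ordered by cluster. The Ctrl points lie above 0 for 20 genes and the EEDcKO points for 13, and both lie below 0 at Hoxa2 to Hoxa4 and at Hoxb2.

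Of 47 other developmental transcription factors, 38 were tested, and 17 of them rose and 2 fell in EEDcKO (median 1.01). Ctrl had 20 rises and 1 fall (median 1.77). AireEEDdKO, where 10.4% of all genes rose and 10.6% fell, had 4 rises and 8 falls (median -0.40). Pax7, a muscle stem cell factor, was at 9.91, 21.4 and 27.7 CPM in mTEChi and 3.03, 1.80, 1.71 and 1.01 CPM in mTEClo (log2 difference 3.43 ± 0.41 SE, adjusted p = 3.97e-06). Pax5, the B cell factor, was at 64.4, 71.1 and 72.7 CPM in mTEChi and 6.40, 7.54, 13.0 and 2.78 CPM in mTEClo (log2 difference 3.19 ± 0.45 SE, adjusted p = 1.65e-05). Tbx5, a heart and forelimb factor, was at 27.3, 24.7 and 25.8 CPM in mTEChi and 6.40, 6.11, 7.89 and 2.02 CPM in mTEClo (log2 difference 2.20 ± 0.43 SE, adjusted p = 0.000409). Gata4 (2.75 ± 0.49), Tbx20 (2.84 ± 0.56), Lhx1 (2.75 ± 0.64), Pax2 (2.64 ± 0.52) and En1 (2.46 ± 0.47) also rose, at adjusted p between 0.00017 and 0.0019.

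Both falls were of factors that were abundant in mTEClo without EED. Zfhx4 was at 67.5, 89.0 and 97.2 CPM in mTEChi and 220.2, 186, 177 and 166 CPM in mTEClo (log2 difference -1.13 ± 0.15 SE, adjusted p = 9.72e-06), while in Ctrl it was 4.75 ± 1.77 CPM in mTEChi and 5.87 ± 1.44 CPM in mTEClo. Ebf3, a factor of muscle, bone marrow stroma and nervous system, was at 6.19, 7.66 and 13.8 CPM in mTEChi and 132, 105, 93.8 and 107 CPM in mTEClo (log2 difference -3.52 ± 0.37 SE, adjusted p = 9.97e-07). In Ctrl, Ebf3 was 8.55 ± 2.26 CPM (SD, n = 5) in mTEChi and 3.85 ± 1.51 CPM (SD, n = 3) in mTEClo, and the 5 mTEChi Ctrl libraries ran from 4.95 to 10.4 CPM, a range that held 2 of the 3 mTEChi EEDcKO libraries. The log2 change was more negative in EEDcKO by 4.59 (adjusted p = 0.000215), the smallest p among more negative changes of protein-coding genes with at least 10 CPM in a group. Its promoter window, a CpG-dense start of the kind where PRC2 is known to act, is at chr7:137314396-137314695 (GRCm38.p6, minus strand, CpGs in capitals):
Ebf3: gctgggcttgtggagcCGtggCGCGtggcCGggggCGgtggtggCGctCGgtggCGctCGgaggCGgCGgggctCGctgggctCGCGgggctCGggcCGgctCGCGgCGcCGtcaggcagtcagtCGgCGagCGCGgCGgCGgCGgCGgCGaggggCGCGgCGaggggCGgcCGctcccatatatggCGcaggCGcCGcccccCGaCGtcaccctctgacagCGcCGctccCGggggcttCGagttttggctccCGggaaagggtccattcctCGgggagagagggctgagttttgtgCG
It holds 46 CpGs, and no copy of TATAAA. No binding or histone data were read here.

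Genes of the Polycomb complexes themselves changed little. Of 11 PRC2 genes none was called, and 1 was called lower without the 1-day mTEChi library. With no minimum change, a limit that 19.4% of all genes passed upward and 18.5% downward, 2 passed the adjusted p upward and 4 downward, and the median was -0.09. Ezh2, the catalytic subunit, was at 47.7, 43.1 and 35.5 CPM in mTEChi and 59.3, 51.4, 39.0 and 56.3 CPM in mTEClo (log2 difference -0.30 ± 0.16 SE, adjusted p = 0.154). Of 19 PRC1 genes, Cbx6 fell, at 119.5, 196 and 121 CPM in mTEChi and 395, 414, 326 and 318 CPM in mTEClo (log2 difference -1.31 ± 0.18 SE, adjusted p = 1.66e-05), Pcgf2 fell (-1.20 ± 0.19, adjusted p = 5.60e-05) and Pcgf5 rose (1.28 ± 0.22, adjusted p = 0.0001). Those 3 were called in the same directions in Ctrl, at log2 differences of -1.66 ± 0.17, -1.46 ± 0.18 and 1.30 ± 0.22. Cdkn2a, the cell cycle inhibitor gene that PRC2 is known to silence, did not pass the test in EEDcKO, at 8.67, 19.2 and 14.2 CPM in mTEChi and 11.8, 14.7, 15.8 and 15.1 CPM in mTEClo (log2 difference 0.01 ± 0.30 SE, adjusted p = 0.985). In Ctrl it was 3.84 ± 2.01 CPM in mTEChi and 1.21 ± 1.00 CPM in mTEClo (1.52 ± 0.48, adjusted p = 0.0162), and the changes of the 2 genotypes differed by -1.51 ± 0.57 (adjusted p = 0.192). None of 7 CDK inhibitor genes and none of 32 cell division genes was called in EEDcKO, by edgeR. Of the cell division genes, 0 passed the adjusted p alone, 2 had an unadjusted p under 0.05, and their median was -0.07. DESeq2 called 0 of the 32 and 0 of the 7. Of the CDK inhibitor genes, 3 had an unadjusted p under 0.05. Mki67, the proliferation marker, was at 138, 239.9 and 317 CPM in mTEChi and 293, 347, 209.8 and 283 CPM in mTEClo (log2 difference -0.28 ± 0.26 SE, adjusted p = 0.423), with the 6-day mTEChi library lowest.

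Side by side with Ctrl, which shares no library with EEDcKO, the change from mTEClo to mTEChi had the same sign for most called genes. In Ctrl 4178 genes were called (20.7%), 2780 higher and 1398 lower. The genotypes had 1759 rises in common, 61.5% of those in EEDcKO and 63.3% of those in Ctrl. They had 683 falls in common, 44.1% and 48.9%. Of the EEDcKO rises 98.3% had the same sign in Ctrl, and of the falls 86.4%, and 32 genes that fell in EEDcKO were called higher in Ctrl. Across the 20196 genes the log2 differences of the genotypes correlated at Pearson's r of 0.706, a value over genes that are not independent and that share depth and length within a library. Of 320 genes with a called difference, 124 were more positive and 196 more negative in EEDcKO. Among the 196, 80 fell in EEDcKO alone, 48 rose in Ctrl alone, and 31 rose in Ctrl and fell in EEDcKO. Among the 124, 54 fell in Ctrl alone, 28 rose in EEDcKO alone and 21 rose in both.

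**Figure D4:**
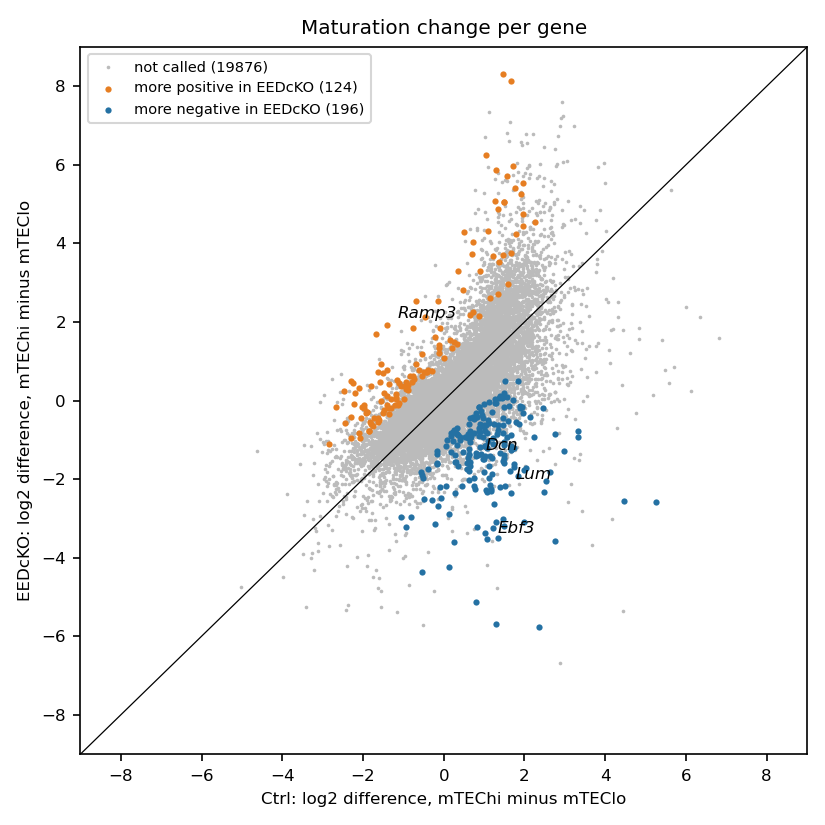
Log2 difference between mTEChi and mTEClo in Ctrl (x axis) and EEDcKO (y axis) for the 20196 genes tested, with the 124 genes more positive (orange) and 196 more negative (blue) in EEDcKO by the test of the difference. Most genes follow the diagonal (r = 0.706 across genes), and Ebf3, Lum and Dcn stand below it and Ramp3 above it.

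The protein-coding genes of at least 10 CPM in a group with the smallest p for a more negative change in EEDcKO were Ebf3, Lum, Selenop, Esr1 and Dcn. Lum (lumican), a collagen-binding proteoglycan of connective tissue, was at 12.4, 8.97 and 12.6 CPM in mTEChi and 54.5, 40.2, 47.6 and 57.3 CPM in mTEClo in EEDcKO, against 13.7 ± 5.54 CPM in mTEChi and 4.48 ± 0.605 CPM in mTEClo of Ctrl. It fell in EEDcKO (-2.17 ± 0.30) and rose in Ctrl (1.51 ± 0.36, adjusted p = 0.00284), a difference of -3.68 ± 0.47 (adjusted p = 0.000215). Dcn (decorin), of the same proteoglycan family, was at 65.0, 66.5 and 105 CPM in mTEChi and 219, 184, 208 and 237 CPM in mTEClo, against 62.5 ± 9.79 CPM and 36.4 ± 4.50 CPM in Ctrl, a difference of -2.21 ± 0.29 (adjusted p = 0.000215). For both genes the mTEClo EEDcKO libraries were the highest of all 15, and the mTEChi libraries of both genotypes were closer to each other. Esr1, the estrogen receptor, was at 27.9, 28.0 and 23.3 CPM in mTEChi and 164, 114, 101 and 125 CPM in mTEClo (log2 difference -2.26 ± 0.26 SE, adjusted p = 3.11e-06), with a difference from Ctrl of -3.03 ± 0.40 (adjusted p = 0.000215). Selenop, a selenium transport protein, fell in EEDcKO (-1.32 ± 0.24) and rose in Ctrl (1.40 ± 0.25), a difference of -2.73 ± 0.35 (adjusted p = 0.000215). In AireEEDdKO, which also lacked EED, Ebf3 (-2.11 ± 0.39) and Esr1 (-1.98 ± 0.27) were called lower in mTEChi. Lum (0.49 ± 0.28), Dcn (0.56 ± 0.20) and Selenop (-0.17 ± 0.25) were not called there. No difference between AireEEDdKO and the other genotypes was tested.

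Lum, Dcn and Col3a1 are also markers of mesenchyme. Of 8 mesenchyme genes, these 3 fell in EEDcKO with called differences from Ctrl, while Pdgfrb (2.11 ± 0.32, adjusted p = 3.53e-05) and Col1a1 (1.17 ± 0.42, adjusted p = 0.0292) rose. The rise of Col1a1 was lost without the 1-day mTEChi library or without the mTEClo library of 2 to 3 days, 1 day or 4 days. Col3a1, a fibrillar collagen, was at 11.8, 5.47 and 2.83 CPM in mTEChi and 61.6, 68.3, 157 and 156 CPM in mTEClo, against 9.78 ± 5.24 CPM in mTEChi and 8.31 ± 2.63 CPM in mTEClo of Ctrl. The summed level of the 8 genes was 579.9 to 856 CPM in mTEClo EEDcKO and 513 to 785 CPM in mTEChi EEDcKO, against 137 to 144 CPM and 269 to 346 CPM in the same fractions of Ctrl. The part of mesenchymal cells in these values was not tested. Abca9, among the 10 largest falls, was likewise at a low level in both Ctrl fractions, at 1.96 ± 0.989 CPM in mTEChi and 2.93 ± 1.39 CPM in mTEClo, and its changes differed by -3.81 ± 0.93 (adjusted p = 0.0313).

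**Figure D5:**
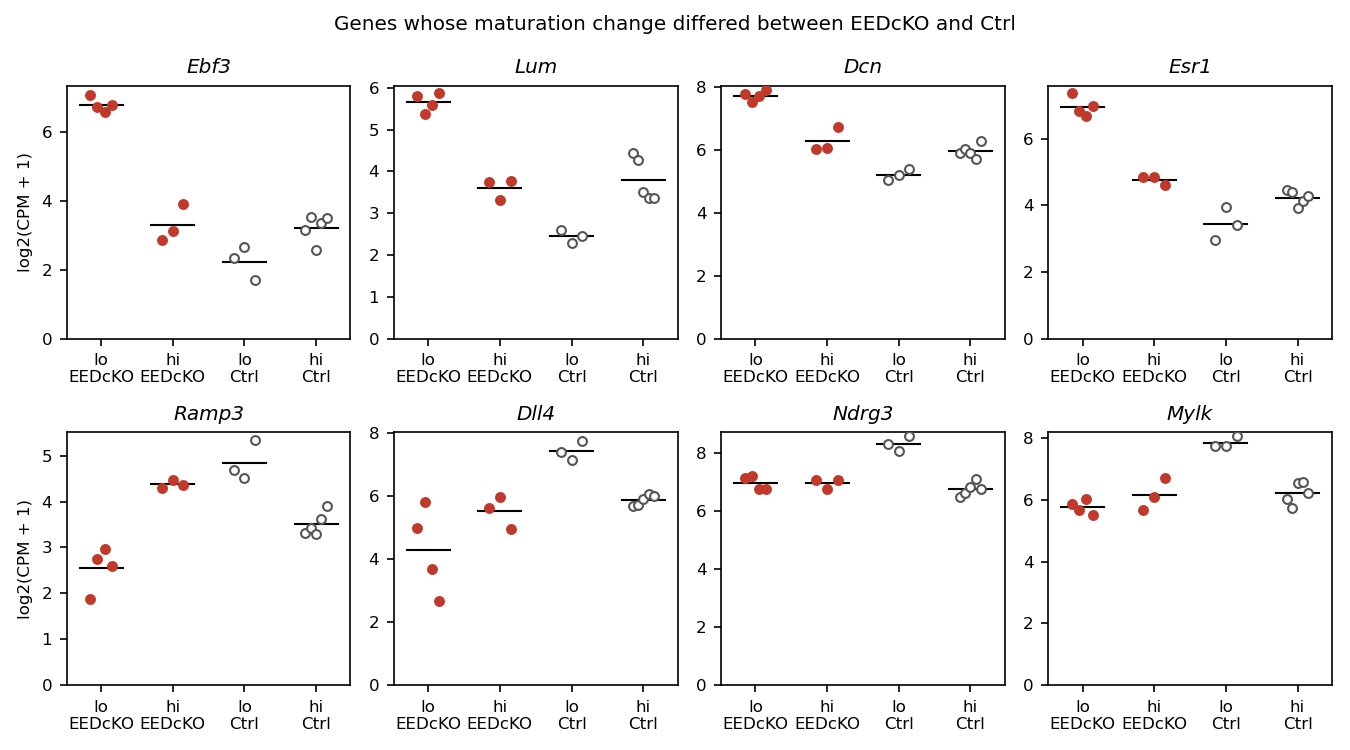
CPM per library on a log2(CPM + 1) axis for 8 genes whose change from mTEClo to mTEChi differed between EEDcKO (4 and 3 libraries) and Ctrl (3 and 5 libraries), with points for libraries and bars at group means of the plotted values. Ebf3, Lum, Dcn and Esr1 stand out through high mTEClo EEDcKO values, Ramp3 and Dll4 through mTEClo values that were lower in EEDcKO than in Ctrl, and Ndrg3 and Mylk through high mTEClo Ctrl values.

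By the same rule, the smallest p for a more positive change were those of Ramp3, Rab11fip4, Ndrg3, Angptl2 and Mylk. Ramp3, a partner of the calcitonin-like receptors, was at 18.6, 21.2 and 19.5 CPM in mTEChi and 2.69, 5.75, 6.82 and 5.05 CPM in mTEClo (log2 difference 1.93 ± 0.27 SE, adjusted p = 1.79e-05), against 10.6 ± 2.17 CPM in mTEChi and 28.7 ± 9.39 CPM in mTEClo of Ctrl. It thus rose in EEDcKO and fell in Ctrl (-1.39 ± 0.25), a difference of 3.33 ± 0.37 (adjusted p = 9.30e-05). Ndrg3 did not pass the test in EEDcKO (-0.01 ± 0.15) and fell in Ctrl (-1.56 ± 0.14, adjusted p = 1.27e-07), a difference of 1.55 ± 0.20 (adjusted p = 0.000215). Likewise, Mylk, the myosin light chain kinase (0.47 ± 0.21), and Angptl2, a secreted angiopoietin-like protein (0.43 ± 0.17), did not pass it in EEDcKO and fell in Ctrl (-1.59 ± 0.19 and -1.35 ± 0.17). Rab11fip4 had a difference of 1.47 ± 0.18 (adjusted p = 0.000215). In Ndrg3 and Mylk the 3 mTEClo Ctrl libraries were above all other libraries of both genotypes, and in Angptl2 the 2-to-3-day mTEChi EEDcKO library was among them.

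Foxn1 and its target Dll4, the Notch ligand that commits T cell progenitors, were among the positive differences. Foxn1 was 163 ± 10.7 CPM in mTEChi and 221 ± 51.5 CPM in mTEClo of Ctrl, and its changes differed by 1.17 ± 0.27 (adjusted p = 0.0242). Dll4 was at 48.3, 62.1 and 29.9 CPM in mTEChi and 30.6, 55.3, 11.7 and 5.30 CPM in mTEClo (log2 difference 0.92 ± 0.47 SE, adjusted p = 0.126), against 58.1 ± 7.05 CPM and 173 ± 38.9 CPM in Ctrl, a difference of 2.49 ± 0.63 (adjusted p = 0.0369). The lowest Dll4 values were those of the mTEClo libraries of 4 and 6 days. Without these 2 libraries neither the Foxn1 nor the Dll4 difference was called, and Ctrl had no mTEClo library of 4 or 6 days. Hey1, a Notch target, fell less than 2-fold in EEDcKO (-0.83 ± 0.25) and more in Ctrl (-2.11 ± 0.23), a difference of 1.28 ± 0.34 (adjusted p = 0.0482). Further called differences among the listed genes included those of Trp73 (-1.84 ± 0.29, adjusted p = 0.0013), Vil1, the microvillus protein villin (-1.29 ± 0.31, adjusted p = 0.0306), and Col17a1, a hemidesmosome collagen (-1.11 ± 0.23, adjusted p = 0.0101). Aire rose more in EEDcKO than in Ctrl by the values (2.16 ± 0.41 and 0.91 ± 0.40), yet the difference of 1.25 ± 0.56 did not pass the test (adjusted p = 0.285).

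Among the non-epithelial lists, 3 of 9 thymocyte genes, 3 of 4 B cell genes, 6 of 11 myeloid genes and 3 of 6 endothelial genes rose in mTEChi EEDcKO, and none fell. Over all genes 14.2% rose. In Ctrl the rises in these lists numbered 3, 3, 4 and 3 in the same order, and none fell. Without the 1-day mTEChi EEDcKO library 2 thymocyte, 2 B cell and 5 myeloid genes rose. Thy1, a surface protein of thymocytes and neurons, was at 62.6, 63.0 and 72.7 CPM in mTEChi and 4.71, 12.2, 11.3 and 2.52 CPM in mTEClo (log2 difference 3.10 ± 0.41 SE, adjusted p = 1.02e-05). Cd4 was at 12.4, 13.8 and 36.5 CPM in mTEChi and 8.42, 4.67, 2.77 and 3.03 CPM in mTEClo (log2 difference 2.21 ± 0.36 SE, adjusted p = 6.85e-05). Ptprc, which encodes CD45, the protein the sort excluded, was at 5.57, 4.81 and 31.1 CPM in mTEChi and 3.70, 6.11, 0.853 and 1.26 CPM in mTEClo (log2 difference 2.36 ± 0.70 SE, adjusted p = 0.0104). Cd3e, a defining T cell gene, was at 1.24, 0.875 and 4.72 CPM in mTEChi and 0.673, 1.44, 1.71 and 0.252 CPM in mTEClo. The 1-day mTEChi library stood out for Ptprc and Cd3e. Lyz2, a lysozyme of myeloid cells, was at 271, 138 and 242 CPM in mTEChi and 100.0, 122, 65.9 and 11.4 CPM in mTEClo (log2 difference 1.55 ± 0.48 SE, adjusted p = 0.0133). No tested member of these lists was at 0 in every mTEChi EEDcKO library, 5 of 14 thymocyte genes, Cd3d and Rag2 among them, were too scarce to test, and whether such genes were read from other cells or from mTECs was not tested.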

How the data were processed

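The deposited values were raw counts per Ensembl gene of full-length RamDA-type libraries. To make these counts, the authors trimmed reads with fastp 0.20.0, mapped them to mm10 with STAR 2.7.3a, dropped low mapping qualities with SAMtools 1.9, removed duplicates with Picard 2.21.1 and counted with HTSeq 0.11.2 regardless of strand. The annotation release was not given in the sources used here. Without molecular identifiers, removal of duplicates can lower the counts of abundant genes, and counting without strand mixes overlapping genes.

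Groups followed the sample labels. Counts of all 24 neonatal libraries were fitted with edgeR 4.0.16 (R 4.3.3): filterByExpr by group, TMM scaling, 1 term per group, and a quasi-likelihood F-test for mTEChi minus mTEClo in EEDcKO, in Ctrl, for the difference of both changes, and in AireEEDdKO. P-values were adjusted by Benjamini-Hochberg over all 20196 genes tested, and calls needed an adjusted p under 0.05 with a change of at least 2-fold. Errors of log2 differences are SE, and those of CPM are SD. Adult libraries (the other table) were fitted apart to define the Aire-induced list. The fits were tested on simulated counts.

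Beside listed genes, the text names protein-coding calls without overlap of the groups, whose mean reached 10 CPM on the higher side and more than 3 counts on the other: the 10 largest log2 changes and the 5 largest CPM differences each way. It also names the 5 smallest p-values each way for the difference. Some genes that these rules or lists hold are not reported here. The comparison, the members and the lists were chosen with earlier results of these data known. Gene positions are from GENCODE (GRCm38), promoter windows from RefSeq. Alternatives were other scalings, filters and covariates, DESeq2 1.42.0, the replicate number as a block and leaving out libraries.

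Equal replicate numbers did not pair the fractions of EEDcKO: same-numbered libraries deviated together at r of 0.034, -0.043 and 0.018. For libraries of the same age and sex label r was 0.108, 0.090 and 0.173, with no statement that they came from the same mice.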

Additional observations from a re-analysis of the deposited data

Results flagged for a closer look

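Of 146 genes named above, 23 changed differently from mTEClo to mTEChi in EEDcKO than in Ctrl, by the test of the difference itself (edgeR, adjusted p under 0.05 and at least 2-fold). Over all genes tested the share was 1.58%. Several of the 146 were named because their difference was called, so this count is set in part by the choice of genes. The log2 change was more positive in EEDcKO, by the log2 value in parentheses, for Htr3a (3.77), Ramp3 (3.33), Dll4 (2.49), Calb2 (2.47), Asb4 (2.45), Mylk (2.06), Angptl2 (1.78), Ndrg3 (1.55), Rab11fip4 (1.47), Hey1 (1.28) and Foxn1 (1.17). It was more negative for Ebf3 (-4.59), Col3a1 (-4.37), Abca9 (-3.81), Lum (-3.68), Esr1 (-3.03), Selenop (-2.73), Hoxc9 (-2.55), Hoxc8 (-2.47), Dcn (-2.21), Trp73 (-1.84), Vil1 (-1.29) and Col17a1 (-1.11).

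In 10 of the 146 genes, 1 mTEClo EEDcKO library stood apart from the other 3 by Dixon's limit. Chance flags about 1 in 20 groups. The library apart was that of 6 days in 7 genes: Gnat3 at 15.8 CPM, Kpna7 at 4.05 CPM, Lhx1 at 9.81 CPM, Lor at 15.3 CPM, Muc5ac at 190.4 CPM, Pyy at 16.2 CPM and Vgf at 3.84 CPM. It was the 1-day library for Pgc at 8.98 CPM, and the 4-day library for Asb4 at 1.01 CPM and Pdgfrb at 6.31 CPM.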

How the results depend on the processing

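None of 160 listed or named genes called in EEDcKO, nor of 26 with a called difference from Ctrl, was reversed under the alternatives that tested it. The other calls were compared by count alone. The number of genes called between mTEChi and mTEClo EEDcKO was 4407, and 3792 to 4776 with 1 library left out. It was 7667 with no minimum change (Ctrl 7547, against 4178 with the minimum and 2827 to 4175 with 1 library left out). Fitted on the 7 EEDcKO libraries alone it was 2983, with 1029 falls against 1549. It was 2843 when 6 of them were fitted alone with age and sex label as a block, an alternative chosen after seeing the data. The count of called differences from Ctrl, 320, depended most on the libraries: it was 178 to 421 with 1 library left out, with 200 without mTEClo Ctrl replicate 1 and 178 without replicate 3. It was 567 without the 2 later mTEClo EEDcKO libraries, 780 without the libraries of 4 and 6 days, and 566 with no filter on low counts. The cause was not tested. With the replicate block the counts were 3972 in EEDcKO, 3922 in Ctrl and 246 for the difference, and 0 of 3 mTEChi libraries deviated most like the mTEClo library of its own number. Other scalings, the stricter filter, age or sex as a term and DESeq2 kept each of the 3 counts within 1.5 times, but DESeq2 called 204 differences more positive in EEDcKO, against 124. Of the 160 genes 107 kept their call under every alternative that tested them, and of the 26 with a called difference 13 did. An alternative whose filter removed a gene was passed over: Hoxb2, for example, was tested in 15 of 20. Calls near the limits that were lost under several included Agr2, Ctsl, Dll1, Notch3, Trp63 and Hoxa9, and for the difference Hey1, Hoxc8, Hoxc9, Htr3a, Asb4, Dll4, Vil1 and Abca9. Depth of 1578579 to 4650379 counts per library limits what can be said of genes at a few CPM.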
